A study of Arabidopsis thaliana with 48 samples.

Results

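Seed storage and embryo identity genes were followed in the Arabidopsis shoot apex, a tissue in which the seed programme is normally off. The 10 genes were chosen by name from the 27206 genes of the count table. They are 3 cruciferins (CRU3 AT4G28520, CRA1 AT5G44120, CRU2 AT1G03880), 2 oleosins (OLEO1 AT4G25140, OLEO2 AT5G40420), the caleosin ATS1 (AT4G26740) and the 4 regulators LEC1 (AT1G21970), ABI3 (AT3G24650), FUS3 (AT3G26790) and LEC2 (AT1G28300). Only 4 of them (CRU3, OLEO1, ATS1 and ABI3) had enough reads to pass the low-count filter that 19566 genes passed, so the other 6 are given as reads and upper limits.

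RNA came from shoot apices enriched for meristem tissue, with 15 apices pooled per library. There were 3 independent biological replicates per genotype at 3, 4, 5 and 6 weeks in short days at 21 °C. WT is the Col accession. The chr4-2 line carries the sail_783c05 insertion in CHR4, a CHD3-type chromatin remodeller gene. The quintuple mutant is svp flc ft tsf soc1, which lacks flowering-time regulators, while qem2 was isolated from the quintuple, so that it carries the same 5 mutations and has the quintuple as its control. One qem2 column (5 weeks, replicate 3) held the same value as quintuple 5 weeks replicate 3 at all 27206 genes and was left out, which leaves 47 libraries and 2 for qem2 at 5 weeks. Library totals ran from 2.91 to 19.7 M (mega) reads, with a median of 14.2 M reads, and the shallowest was qem2 6 weeks replicate 1. CHR4 itself was lower in chr4-2 than in WT, by a log2 change of -1.14 ± 0.04 (SE) averaged over the 4 weeks (edgeR quasi-likelihood adjusted p 7.65e-23), and was higher in qem2 than in the quintuple (0.32 ± 0.04, 3.24e-07). Apical meristem markers were abundant, with STM, KNAT1 and CLV1 summing with CLV3, WUS and CUC2 to between 157 and 404 CPM (read counts scaled to library size, the usual unit for such tables) in every library.

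Cruciferins are the globulins that Arabidopsis embryos store as a nitrogen reserve, while oleosins and caleosins coat the oil bodies that hold seed lipid. Their genes are switched on during embryo maturation by LEC1, a subunit of the NF-Y complex that binds CCAAT boxes, and by ABI3, FUS3 and LEC2, B3-domain factors that bind the RY element. After germination the programme is shut down by VAL repressors, Polycomb complexes and the CHD3-type remodeller PICKLE, a relative of CHR4.

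The promoters show where such sites lie in the genes that the results turn on, together with CRA1, a cruciferin that stayed near 0. Each sequence is the 250 bases before the annotated gene start, read 5′ to 3′ on the gene's strand from the RefSeq TAIR10.1 genome. Capitals mark the RY element core (CATGCA, or TGCATG on the other strand) and the G-box (CACGTG), the site of many bZIP factors. OLEO3 (AT5G51210) is a further oleosin gene that is described below with the other seed genes.
CRU3, chr4:14087306-14087555, plus strand: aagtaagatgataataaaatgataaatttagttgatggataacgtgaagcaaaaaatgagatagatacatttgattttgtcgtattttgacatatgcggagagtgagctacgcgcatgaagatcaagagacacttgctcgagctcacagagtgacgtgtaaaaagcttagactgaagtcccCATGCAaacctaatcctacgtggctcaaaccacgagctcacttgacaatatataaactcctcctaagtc
CRA1, chr5:17758337-17758586, minus strand: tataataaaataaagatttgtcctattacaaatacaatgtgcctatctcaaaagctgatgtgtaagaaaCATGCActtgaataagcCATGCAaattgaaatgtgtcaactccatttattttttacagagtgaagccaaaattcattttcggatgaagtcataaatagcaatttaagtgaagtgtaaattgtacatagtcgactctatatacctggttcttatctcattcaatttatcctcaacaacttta
ATS1, chr4:13475372-13475621, minus strand: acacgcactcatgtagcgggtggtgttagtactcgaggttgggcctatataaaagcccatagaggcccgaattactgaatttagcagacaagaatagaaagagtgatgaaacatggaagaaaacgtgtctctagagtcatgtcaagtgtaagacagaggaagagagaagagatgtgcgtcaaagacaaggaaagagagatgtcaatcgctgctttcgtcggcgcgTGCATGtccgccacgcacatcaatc
OLEO1, chr4:12900180-12900429, plus strand: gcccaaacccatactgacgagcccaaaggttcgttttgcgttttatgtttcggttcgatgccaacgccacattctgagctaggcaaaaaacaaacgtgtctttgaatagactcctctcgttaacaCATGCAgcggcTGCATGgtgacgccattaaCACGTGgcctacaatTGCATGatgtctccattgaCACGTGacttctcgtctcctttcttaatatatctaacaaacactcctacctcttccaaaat
OLEO3, chr5:20819818-20820067, plus strand: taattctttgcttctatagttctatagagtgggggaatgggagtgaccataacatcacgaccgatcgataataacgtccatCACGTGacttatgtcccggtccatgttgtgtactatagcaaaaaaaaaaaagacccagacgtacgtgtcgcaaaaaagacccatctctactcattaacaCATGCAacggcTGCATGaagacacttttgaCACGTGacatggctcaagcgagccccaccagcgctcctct

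An RY core was present in this window in 6 of the 10 genes, against 8.43% of 27443 protein-coding genes. The 6 were CRU3, CRA1, OLEO1, OLEO2, ATS1 and FUS3. A G-box was found in OLEO1 alone among the 10, against 6.49% of promoters, and the longer RY element CATGCATG in none of them, against 0.776%. OLEO1 and OLEO3 shared an arrangement, noticed after the sequences were seen, in which a second RY core began 11 bases after the first and a G-box 30 bases after it. The motif was present both in promoters of genes that rose and in those of genes with no or almost no reads (CRA1, OLEO2 and FUS3). A match describes the letters only.

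**Figure D1:**
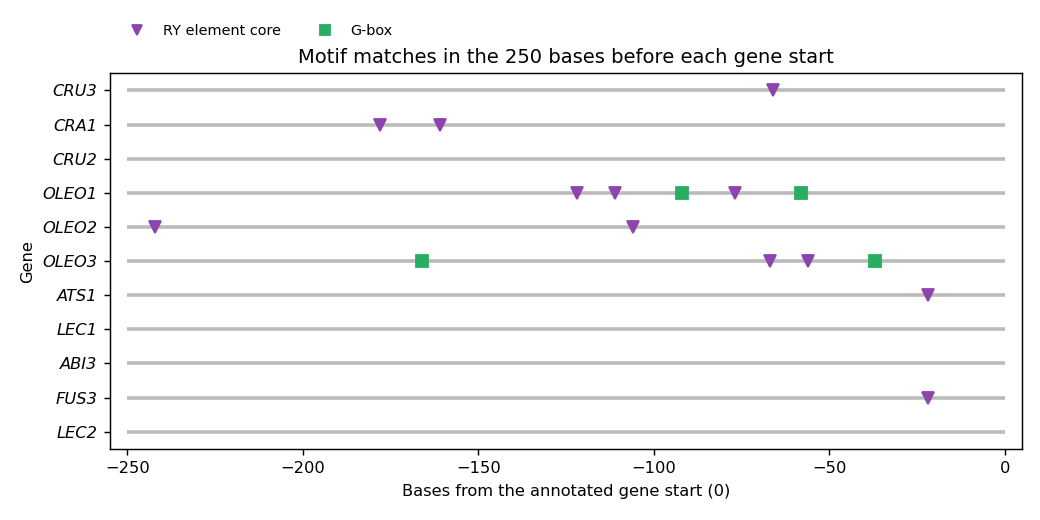
Positions of RY core (triangles) and G-box (squares) matches on either strand, in bases from the annotated gene start, for the 10 genes and OLEO3. CRU3 and ATS1 have 1 RY core each, and OLEO1 has 3 with 2 G-boxes.

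CRU3 was read in the mutants and almost never in their controls. Not one of its reads fell in the 12 WT libraries, and 1 read fell in the 12 quintuple libraries, while chr4-2 had 155 reads in 12 of 12 libraries and qem2 90 reads in 10 of 11. At 3 weeks the chr4-2 libraries held 2, 6 and 5 reads and the qem2 libraries 0, 3 and 7. At 4 weeks they held 7, 6 and 5 reads in chr4-2 and 4, 5 and 6 in qem2, beside 0, 1 and 0 in the quintuple. At 5 weeks chr4-2 had 9, 11 and 23 reads and qem2 6 and 22. At 6 weeks chr4-2 had 38, 17 and 26 reads and qem2 5, 18 and 14, the 5 reads coming from the shallowest library, in which they amount to 1.66 CPM. Every chr4-2 library lay above every WT library at every week, and qem2 and quintuple libraries overlapped only at 3 weeks, where 1 qem2 library also had no read.

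On the CPM scale CRU3 reached 0.300 ± 0.0299 (SD, n = 3) in chr4-2 at 3 weeks and 2.01 ± 0.51 (SD, n = 3) at 6 weeks. In qem2 it was 0.263 ± 0.296 (SD, n = 3) and 1.30 ± 0.33 (SD, n = 3) at the same weeks. With WT set at 3 reads over its group, the CRU3 ratio of chr4-2 to WT was 3.60 at 3 weeks and 7.45 at 4. It was 12.6 at 5 and 30.1 at 6 weeks. With the quintuple set the same way, the ratio of qem2 was 3.79 at 3 weeks, 15.8 at 5 and 16.5 at 6 weeks. At 4 weeks, with 1 quintuple read, the ratio was 14.9 with a 95% counting interval from 2.30 to 629. The floor ratios take the mutant reads as counted, without their error. At 3 weeks the 95% exact Poisson intervals of the summed reads were 0.159 to 0.512 CPM in chr4-2 and 0 to 0.102 in WT. These intervals, here and below, pool the reads of all libraries of a group and leave out the spread between libraries. PCR copies were not told apart by molecular identifiers, so the counting error itself may be larger. An interval that excludes 1 is therefore no test. Bulk RNA cannot tell a few apices or cells with much CRU3 from many cells with little.

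CRU3 passed the edgeR quasi-likelihood test, Benjamini-Hochberg adjusted over all tested genes, in chr4-2 at 4 weeks (adjusted p 0.0188), 5 weeks (0.00118) and 6 weeks (3.72e-05), and in qem2 at 5 weeks (0.00183) and 6 weeks (0.000545). It missed the threshold in chr4-2 at 3 weeks (0.145) and in qem2 at 3 and 4 weeks (0.120 and 0.158). Averaged over the 4 weeks, the adjusted p was 7.40e-08 in chr4-2 and 5.93e-07 in qem2. The 4-week call in chr4-2 was lost when WT replicate 1, WT replicate 3 or chr4-2 replicate 1 was left out, with adjusted p up to 0.128, and the 5-week call in qem2 when qem2 replicate 2 was left out (0.0910). The authors' deposited tables of differential genes list CRU3 at the same weeks, 4, 5 and 6 in chr4-2 and 5 and 6 in qem2, with adjusted p of 5.51e-06 and 0.00101 at 6 weeks.

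**Figure D2:**
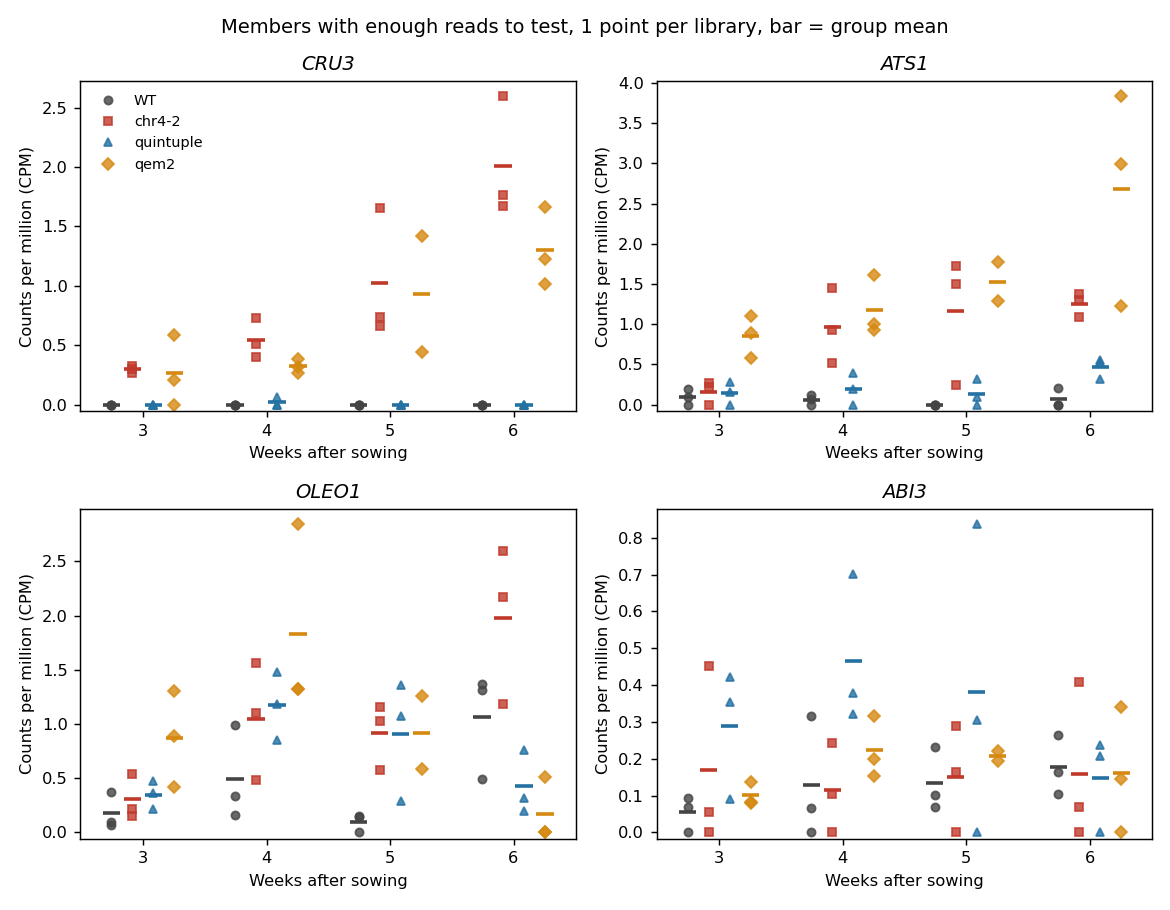
CPM of CRU3, ATS1, OLEO1 and ABI3 (linear axes) against weeks after sowing, with 1 point per library, a bar at each group mean and colours for the 4 genotypes. CRU3 lies at or near 0 in WT and the quintuple at all weeks and reaches 2.59 CPM in a chr4-2 library at 6 weeks.

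The other cruciferins were almost unread. CRA1 had 3 reads in all 47 libraries, 2 of them in 1 WT library and 1 in a chr4-2 library, both at 6 weeks. CRU2 had 1 read in chr4-2 and 1 in qem2. For CRA1 the summed level in chr4-2 was at most 0.0349 CPM (upper end of the 95% exact Poisson interval), against 0.972 CPM for CRU3. The coding sequence of CRU3 aligned with those of CRA1 and CRU2 at 67.5% and 65.3% nucleotide identity, over 985 and 976 aligned bases, and no annotated gene overlapped CRU3.

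ATS1, an oil-body caleosin with peroxygenase activity, was also higher in both mutants, from a control level above 0. Its reads summed to 9 in WT and 144 in chr4-2, a 16.0-fold ratio after scaling to library size (95% counting interval 8.20 to 35.7), and to 42 in the quintuple and 212 in qem2, a 6.28-fold ratio (4.49 to 8.97). At 3 weeks WT had 1, 2 and 0 reads, chr4-2 0, 4 and 5, the quintuple 3, 4 and 0 and qem2 11, 16 and 7. At 4 weeks the reads were 1, 1 and 0 in WT, 5, 11 and 18 in chr4-2, 5, 3 and 0 in the quintuple and 14, 21 and 19 in qem2. At 5 weeks they were 0 in each WT library, 3, 25 and 24 in chr4-2, 0, 6 and 1 in the quintuple and 24 and 20 in qem2. At 6 weeks WT had 0, 0 and 4 reads, chr4-2 19, 14 and 16, the quintuple 8, 4 and 8 and qem2 9, 18 and 53. The qem2 libraries lay above the quintuple libraries at every week, while chr4-2 and WT overlapped at 3 weeks and were apart at 4, 5 and 6.

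ATS1 rose in chr4-2 by a log2 change of 4.11 ± 1.03 (SE) at 4 weeks (edgeR adjusted p 0.0341) and 3.68 ± 0.89 at 6 weeks (0.0105). It was also called at 5 weeks (edgeR adjusted p 0.00201), where WT had no read. With WT set at 3 reads, the ratio there was 15.2, without the error of the mutant reads. ATS1 rose in qem2 by 3.35 ± 0.84 at 5 weeks (0.0279) and 2.45 ± 0.67 at 6 weeks (0.0369). At 3 and 4 weeks the qem2 values were 2.40 ± 0.84 and 2.67 ± 0.78 with adjusted p of 0.222 and 0.0967. Averaged over the 4 weeks the log2 change was 4.00 ± 0.60 in chr4-2 (7.73e-06) and 2.72 ± 0.39 in qem2 (3.95e-06), and these averaged calls held whichever library was left out. The weekly ATS1 calls depended on single libraries: leaving out 1 library lost the call in 5 of 6 cases for chr4-2 at 4 weeks, 1 of 6 at 6 weeks (WT replicate 1, adjusted p 0.10), and for qem2 in 4 of 5 cases at 5 weeks and 5 of 6 at 6 weeks. The authors' deposited tables list ATS1 in chr4-2 and in qem2 at 4, 5 and 6 weeks, with log2 changes of 3.85 and 2.50 at 6 weeks.

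**Figure D3:**
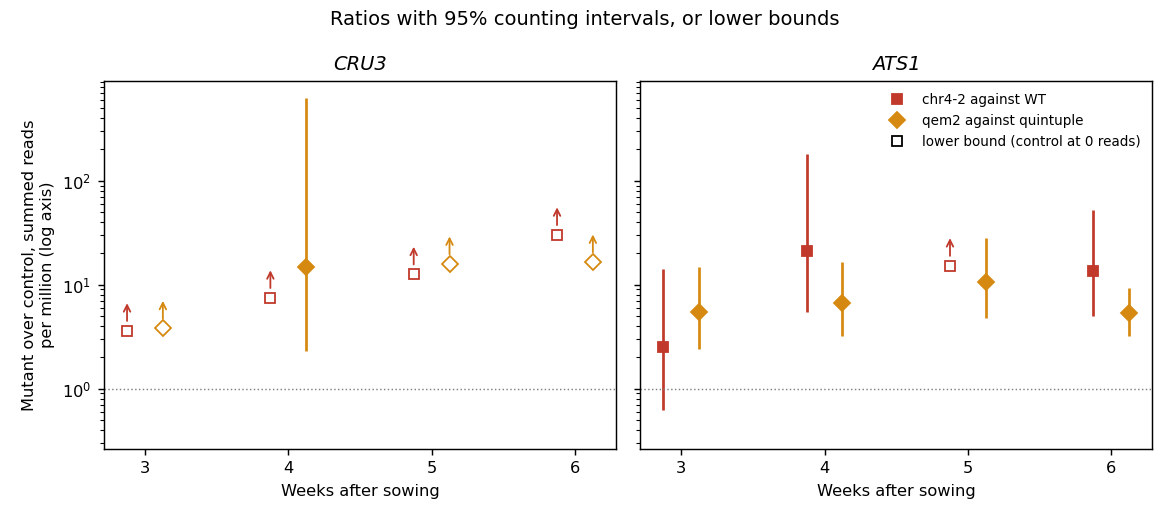
Ratios of summed reads, scaled to library size, of mutant over control for CRU3 and ATS1 by week, on a log axis, with 95% counting intervals. Open symbols with arrows, marked as lower bounds, set a control without reads at 3 reads and take the mutant reads without error. For CRU3 in chr4-2 at 6 weeks this value is 30.1.

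OLEO1, the main oleosin of Arabidopsis seed oil bodies, differed from CRU3 and ATS1 in being read in every genotype, with 80 reads in WT, 170 in chr4-2, 140 in the quintuple and 150 in qem2. At 3 weeks WT had 4, 1 and 1 reads, chr4-2 1, 4 and 10, the quintuple 9, 3 and 4 and qem2 11, 19 and 5. At 4 weeks WT had 5, 8 and 3 reads, chr4-2 15, 13 and 6, the quintuple 11, 23 and 22 and qem2 20, 37 and 25. At 5 weeks WT had 2, 0 and 2 reads, with 14, 17 and 8 in chr4-2, 21, 26 and 3 in the quintuple and 17 and 9 in qem2. At 6 weeks WT had 26, 3 and 25 reads, chr4-2 38, 12 and 32, the quintuple 3, 4 and 11 and qem2 0, 0 and 7. WT lay below the 3 other genotypes at 5 weeks, and the mutant and control libraries overlapped at the other weeks.

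Averaged over the 4 weeks OLEO1 rose in chr4-2 by a log2 change of 1.51 ± 0.39 (SE, edgeR adjusted p 0.00691), while the qem2 value was 0.22 ± 0.37 (0.768). The difference between these effects, -1.29 ± 0.53, had an unadjusted p of 0.0198 and an adjusted p of 0.441. In single weeks edgeR called OLEO1 in the quintuple against WT at 5 weeks (3.07 ± 0.85, adjusted p 0.0216), and 4 of 6 leave-one-out fits lost that call. In chr4-2 at 5 weeks the edgeR value was 3.01 ± 0.87 with an adjusted p of 0.0551, and DESeq2 called it (adjusted p 0.0370). OLEO1 overlaps AT4G25150 on the opposite strand, a gene with 20233 reads over all columns. No source used here gives a strand setting, and without one the reads of both genes in the overlap cannot be told apart. AT4G25150 had log2 changes of -0.05 ± 0.08 in chr4-2 and -0.01 ± 0.08 in qem2, averaged over the weeks. The other oleosin, OLEO2, had no read in any of the 47 libraries, which allows at most 0.0188 CPM in WT and chr4-2, 0.0164 in the quintuple and 0.0205 in qem2 at 3 reads.

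**Figure D4:**
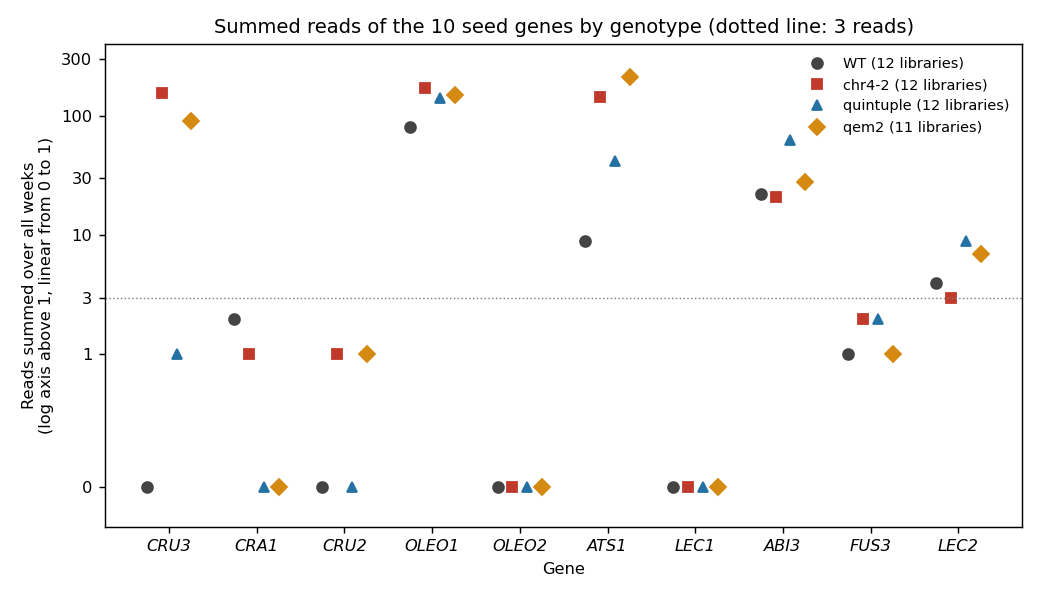
Reads summed over the 4 weeks for each of the 10 genes and 4 genotypes (log axis above 1 read, linear below, dotted line at 3 reads). CRU3 and ATS1 are far higher in chr4-2 and qem2 than in their controls, and OLEO2 and LEC1 are at 0 everywhere.

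None of the 4 regulators was called in any comparison. LEC1 had no read in any library, with the same limits as OLEO2. FUS3 had 1, 2, 2 and 1 reads in WT, chr4-2, quintuple and qem2, and LEC2 had 4, 3, 9 and 7. For LEC2 the ratio of chr4-2 to WT was 0.750 (95% counting interval 0.110 to 4.44) and of qem2 to the quintuple 0.968 (0.306 to 2.92).

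ABI3 was the one regulator with enough reads to test, and it passed the low-count filter only through quintuple libraries. Its ratios and library ranges against the quintuple are therefore a description, with no neutral comparison. Over the 4 weeks it had 22 reads in WT and 21 in chr4-2, a ratio of 0.955 (0.50 to 1.82), and 63 in the quintuple and 28 in qem2, a ratio of 0.553 (0.341 to 0.876). Per library its level ran from 0 to 0.316 CPM in WT (median 0.0975), 0 to 0.451 in chr4-2 (0.0859), 0 to 0.837 in the quintuple (0.313) and 0 to 0.340 in qem2 (0.154), so that the ranges of all 4 genotypes overlapped. Within a week, the quintuple libraries lay above both WT and qem2 at 4 weeks. The averaged log2 change was 0.10 ± 0.59 (SE) in chr4-2 (edgeR adjusted p 0.960) and -0.73 ± 0.51 in qem2 (0.400). These errors are 1 SE, and changes well above them could go uncalled at this depth. In the quintuple against WT an ABI3 change of 1.26 ± 0.54 was not called (edgeR adjusted p 0.0861).

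Read against all genes, the calls among the 10, of which 4 were tested, were as follows. CRU3 and ATS1 passed the low-count filter only through chr4-2 and qem2 libraries. Their highest values were 0 and 0.211 CPM in WT, and 0.0643 and 0.552 CPM in the quintuple. Their calls are therefore a description, with no neutral comparison to the shares over all genes. In chr4-2 against WT, 0 members were called at 3 weeks (0.818% of tested genes called), where 1 had an unadjusted p under 0.05 in edgeR and DESeq2 called 0. At 4, 5 and 6 weeks 2 were called each time (1.09%, 2.32% and 4.01%), all of them higher (0.726%, 1.46% and 2.30% of genes were called higher). In qem2 against the quintuple, 0 were called by edgeR at 3 and 4 weeks (1.05% and 1.23%). At each of those weeks 2 members had an unadjusted p under 0.05, and DESeq2 called 0 at 3 weeks and 1 at 4. At 5 and 6 weeks 2 were called (1.41% and 2.86%), all higher (0.997% and 1.83%). Averaged over the weeks, 3 were higher in chr4-2 (11.9% called, 6.50% higher) and 2 in qem2 (11.1% called, 6.20% higher). CRU3 and ATS1 made up every weekly edgeR call in both mutants, and DESeq2 called OLEO1 as well in chr4-2 at 5 weeks.

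No member was called for a difference between the qem2 and chr4-2 effects by edgeR or DESeq2, at 3, 4, 5 or 6 weeks (0.0153%, 0.0204%, 0.0307% and 0.250% of genes called) or on average (0.475%). OLEO1 was the 1 member with an unadjusted p under 0.05, at 5 weeks and averaged. For CRU3 that difference could not be estimated, because its controls were at or near 0.

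The quintuple was compared with WT to show what the flowering-time mutations did alone. These comparisons share WT with chr4-2 and the quintuple with qem2. OLEO1 was the 1 member called at 5 weeks (6.86% of genes called, 2.56% higher), and none was called at 3, 4 or 6 weeks (0.404%, 12.4% and 6.29%), where 0, 1 and 2 had an unadjusted p under 0.05 and DESeq2 called 0. Averaged over the weeks ATS1 rose by 2.21 ± 0.71 (SE, edgeR adjusted p 0.0211; 22.6% of genes called, 11.3% higher), a ratio of summed reads of 4.08 (1.96 to 9.53). That call was lost without quintuple 4 weeks replicate 1 or 5 weeks replicate 2, with adjusted p up to 0.154. The authors' deposited table for the quintuple, with 1 adjusted p per gene over the weeks, gives 0.366 for ATS1 and 0.00802 for OLEO1. ABI3, which passed the low-count filter only through quintuple libraries, had 63 reads against 22, a ratio of 2.50 (1.52 to 4.27), given as a description. Its averaged log2 change of 1.26 ± 0.54 did not pass (0.0861).

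With age, CRU3 and ATS1 rose in the mutants. CRU3 passed the low-count filter through mutant libraries of later weeks, with at most 0.329 CPM in chr4-2 and 0.584 in qem2 at 3 weeks. Its age changes are therefore a description. From 3 to 6 weeks in chr4-2, CRU3 rose by a log2 change of 2.72 ± 0.60 (SE, edgeR adjusted p 0.000735), ATS1 by 2.59 ± 0.78 (0.00701) and OLEO1 by 2.55 ± 0.66 (0.00175), with 45.9% of all genes called and 22.9% higher. In qem2 CRU3 rose by 2.2 ± 0.66 (0.0122) and ATS1 by 1.60 ± 0.63 (0.0476), with 35.5% called and 18.0% higher. The ATS1 call in qem2 was lost with the replicate number as a block (0.0563) and in 5 of 6 leave-one-out fits, and that of CRU3 without qem2 3 weeks replicate 1 or replicate 2 (adjusted p up to 0.0534). OLEO1 rose in WT as well, by 2.70 ± 0.79 (0.00662; 38.0% called, 18.8% higher), so its increase in chr4-2 had a counterpart in WT: the difference between those changes was -0.15 ± 0.92. In qem2 OLEO1 had a value of -1.97 ± 0.81 (0.0559), opposite in sign to WT and chr4-2, and DESeq2 called it lower (adjusted p 0.0434). In the quintuple no member was called (41.5% of genes called), 0 had an unadjusted p under 0.05 and DESeq2 called 0. ATS1 there still had a value of 1.54 ± 0.89 (SE, edgeR adjusted p 0.167), close to that in qem2. Its 6-week quintuple libraries all lay above the 3-week ones. In WT the ATS1 value was 0.07 ± 1.30. Tests of whether a genotype effect grew between 3 and 6 weeks, added after the data were seen, called no member in chr4-2, qem2 or the quintuple (0.133%, 0.107% and 1.04% of genes called). Of these, 0, 0 and 1 members had an unadjusted p under 0.05 in edgeR, DESeq2 called 0, and CRU3 could not be estimated. Markers of tissue makeup moved over the same weeks. The 4 leaf mesophyll markers summed to between 4332 and 6691 CPM in chr4-2 at 3 weeks and between 1979.7 and 2665 at 6 weeks, and to 3028 to 3758 and 2180.4 to 2605 in qem2. In chr4-2 4 of 4 fell (median log2 change -1.34), and 3 of 4 fell in qem2 (-0.68), in WT (-0.86) and in the quintuple (-1.07). Of the 6 meristem markers 3 rose in WT, chr4-2 and the quintuple, while in qem2 1 rose and 2 fell. The part of these markers in the age changes was not tested.

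Per kilobase of transcript, which allows genes to be compared, OLEO1 stood highest in WT (0.503 ± 0.541 CPM per kb, SD, n = 12), followed by ATS1 (0.0514 ± 0.0719) and ABI3 (0.0397 ± 0.0324). In chr4-2 the order was OLEO1 (1.17 ± 0.83), ATS1 (0.801 ± 0.546), CRU3 (0.540 ± 0.423) and ABI3 (0.0478 ± 0.0526). In qem2 it was ATS1 (1.42 ± 0.89, n = 11), OLEO1 (1.04 ± 0.89), CRU3 (0.381 ± 0.309) and ABI3 (0.0547 ± 0.0323). In both mutants OLEO1 and ATS1 lay within 1 SD of each other, while the mean of CRU3 lay more than 1 SD below that of ATS1 in qem2. The order changed with the week. In qem2 at 4 weeks OLEO1 came first (2.01 ± 0.97 CPM per kb, SD, n = 3) and CRU3 stood at 0.179 ± 0.0335. At 6 weeks ATS1 came first (2.43 ± 1.20), and CRU3 (0.725 ± 0.185) stood above OLEO1 (0.186 ± 0.322), with no overlap of their libraries. In chr4-2 at 6 weeks OLEO1 came first (2.18 ± 0.80), ahead of ATS1 (1.13 ± 0.14) and CRU3 (1.12 ± 0.28).

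Other seed genes were followed through lists of 21 storage, oil-body and late-embryogenesis genes and 19 embryo regulators. Of the 21, 6 had no read (SESA3, SESA4, SESA5, ATPXG2, HSD1 and PER1) and 5 could be tested. Of these 1, OLEO3, was called higher in chr4-2 at each of the 4 weeks (0.818%, 1.09%, 2.32% and 4.01% of all genes called) and in qem2 at 4 and 6 weeks (1.23% and 2.86%). OLEO3 passed the low-count filter only through chr4-2 and qem2 libraries, with at most 0.528 CPM in WT and 0.680 in the quintuple. Its calls in these mutants are therefore a description, with no neutral comparison to those shares. The median log2 change of the 5 was 0.03 in chr4-2 and 0.07 in qem2, averaged over the weeks, beside -0.01 and -0.00 over all genes. At 6 weeks OLEO3, another seed oleosin, had 33, 27 and 27 reads in chr4-2 and 10, 2 and 7 in WT, and 4, 32 and 42 in qem2 beside 7, 2 and 3 in the quintuple. The mutant libraries lay above their controls. Averaged over the weeks OLEO3 rose by 3.02 ± 0.28 (SE) in chr4-2 (edgeR adjusted p 1.16e-10) and by 2.16 ± 0.24 in qem2 (1.40e-08). It also rose in the quintuple against WT (0.93 ± 0.33, 0.0400), a call lost in 10 of 24 leave-one-out fits, with the replicate block (0.0508), with DESeq2 (0.0835), without the filter (0.0509) and with all 48 columns (0.0626). The 4-week calls of OLEO3 were lost without WT replicate 1 in chr4-2 (0.0503) and without quintuple replicate 3 in qem2 (0.0537). OLEO4 was not called between mutant and control, and it fell between 3 and 6 weeks in each of the 4 genotypes, by 3.79 in WT and 4.40 in qem2 on the log2 scale (adjusted p 4.97e-07 and 2.20e-07).

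Among the 19 regulators, 11 could be tested. On average over the weeks 4 were called higher in chr4-2 and 2 in qem2, with none lower. Of all genes, 6.50% and 6.20% were called higher. Both counts include MYB115, which passed the low-count filter only through chr4-2 and qem2 libraries (at most 0.201 CPM in WT and 0.315 in the quintuple). The counts are therefore a description, with no neutral comparison to those shares. In the quintuple against WT 2 regulators were called higher on average, beside 11.3% of all genes. At 4 weeks 4 were, where 12.4% of all genes were called in either direction. EEL, WRI1 and AREB3 lost that 4-week call in the fit of the compared libraries alone (edgeR adjusted p 0.176, 0.134 and 0.0746). The median log2 change of the 11 was 0.14 and 0.09. MYB115, an R2R3 MYB factor whose overexpression promotes embryonic development in vegetative tissue, rose by 3.82 ± 0.35 (SE) in chr4-2 (edgeR adjusted p 9.70e-11) and 2.53 ± 0.32 in qem2 (2.10e-07). Its reads at 5 weeks were 22, 40 and 41 in chr4-2 and 1, 2 and 2 in WT, and 12 and 18 in qem2 beside 2, 4 and 1 in the quintuple. It was not called in chr4-2 at 3 weeks, with 1, 6 and 7 reads beside 0, 1 and 2 in WT, nor in qem2 at 6 weeks, with 2, 5 and 10 reads beside 2, 4 and 3 in the quintuple. EEL, a bZIP factor of late embryogenesis genes, rose by 0.52 ± 0.12 in chr4-2 (0.00231) and 0.54 ± 0.12 in qem2 (0.00146), while AGL15, a MADS-box factor that accumulates in embryos, rose in chr4-2 (0.67 ± 0.11, 4.94e-05) and in the quintuple against WT (1.27 ± 0.11, 7.37e-11). ABI5 was the fourth called in chr4-2, at 0.63 ± 0.17 (0.0132).

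**Figure D5:**
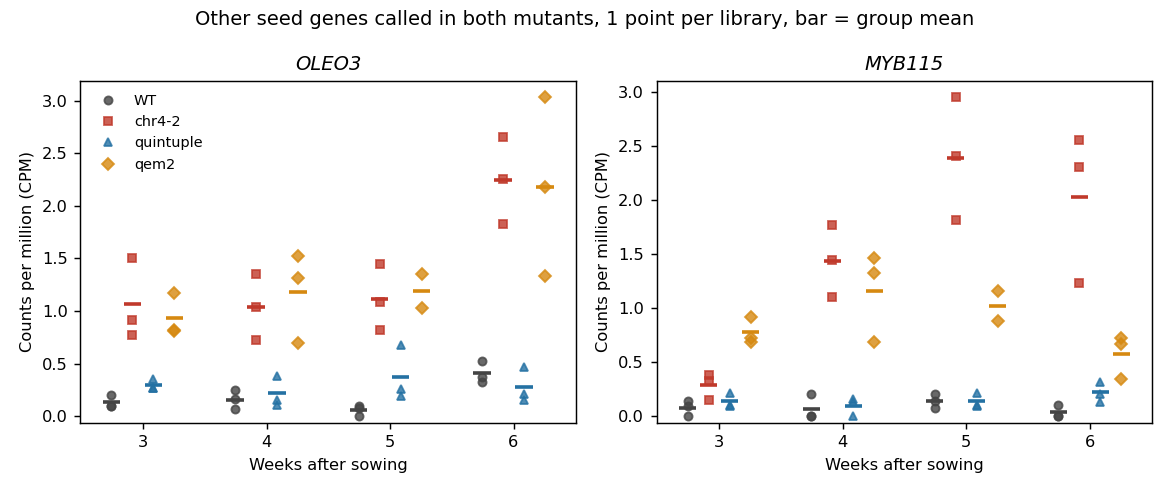
CPM of OLEO3 and MYB115 (linear axes) against weeks after sowing, with 1 point per library and a bar at each group mean. OLEO3 in chr4-2 lies above WT at every week, from 0.725 to 2.66 CPM over all weeks.

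A list of 19 genes drawn up as repressors of the seed programme held VAL1, VAL2, PKL, CLF and SWN, and all 19 were tested. It also held CHR4, a relative of PKL whose part in the seed programme was not tested here. Averaged over the weeks, 2 were higher in chr4-2 (RING1A and HDA19) and 1 lower, CHR4 itself, and 2 were higher in qem2 (CHR4 and RING1B), where 11.9% and 11.1% of all genes were called in either direction. In the quintuple against WT 7 of the 19 were higher, beside 11.3% of all genes. RING1A rose by 0.26 ± 0.06 (SE, edgeR adjusted p 0.00184) and RING1B in qem2 by 0.43 ± 0.06 (9.77e-07). The median log2 change of the list was 0.04 and 0.01.

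Markers of other tissues were counted beside these results. The 4 pollen and tapetum markers summed to a median of 0 CPM in WT (range 0 to 0.105) and the quintuple (0 to 0.0707), and to 0.122 in chr4-2 (0 to 0.416) and 0.0807 in qem2 (0 to 0.264). MS2, a tapetum fatty acyl reductase gene, supplied most of these reads, with 24 in chr4-2, 14 in qem2, 0 in WT and 1 in the quintuple, while VGD1, a pollen gene, had 0 in both mutants. Like CRU3, this sum had a higher median in both mutants, on few reads. In chr4-2 the median of the sum was 0.339 CPM at 4 weeks and 0.136 at 6 weeks, and in qem2 0.154 and 0.0681. So few reads do not allow a time course to be read from these medians. The part of these markers in the result was not tested. The 6 seed coat and endosperm markers overlapped between genotypes, with ranges of 0.327 to 1.79 CPM in WT, 0.150 to 1.63 in chr4-2, 0.787 to 1.83 in the quintuple and 0.726 to 2.00 in qem2. The 8 flower markers ranged from 0.264 to 3.13 CPM in WT, 0.678 to 2.39 in chr4-2, 1.20 to 5.76 in the quintuple and 0.307 to 3.55 in qem2. In the quintuple against WT 3 of 3 tested flower markers were called higher at 6 weeks, where 6.29% of all genes were called in either direction. Averaged over the weeks 2 of 3 were, beside 11.3% of all genes called higher. The part of these markers in the ATS1 value there was not tested. The 5 abscisic acid response genes had medians of 73.7 CPM in WT, 120 in chr4-2, 84.8 in the quintuple and 158 in qem2 with overlapping ranges (35.7 to 164, 46.6 to 277, 38.6 to 171 and 31.7 to 370), and RD29B among them rose in chr4-2 by 2.44 ± 0.60 (edgeR adjusted p 0.00476). Of the 6 meristem markers, STM (0.37 ± 0.08, 0.00064) and WUS (0.92 ± 0.31, 0.0446) rose in chr4-2, while in qem2 STM rose (0.27 ± 0.08, 0.0175) and CUC2 (-0.53 ± 0.10, 0.000321) and CLV3 (-0.88 ± 0.27, 0.0267) fell. The part of these markers in the seed gene results was not tested either.

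Genes beside the members were counted too. Of 14 tested neighbours within 2 genes of CRU3, ATS1, OLEO1 or OLEO3, 2 were called in chr4-2 and 1 in qem2, averaged over the weeks, where 11.9% and 11.1% of all genes were called. Immediately beside CRU3, PHB1 had a log2 change of 0.12 ± 0.07 (SE) in chr4-2 and NAC074 one of -0.04 ± 0.23, neither of which passed (edgeR adjusted p 0.305 and 0.970). SRS2, near OLEO1, was called in both, at -0.23 ± 0.06 in chr4-2 (0.00347) and -0.31 ± 0.06 in qem2 (0.000167), and MAP65-2, near ATS1, in chr4-2 at 0.17 ± 0.04 (0.00450).

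The genes whose log2(CPM + 0.5) most resembled that of CRU3 over the 47 libraries were AT3G45940, SVL4 and SPIK, with Pearson r of 0.92, 0.91 and 0.90. For ATS1 they were AT1G03710, AT2G03550 and AT5G09780 (0.86, 0.84 and 0.84), for OLEO1 CYP71B13, UMAMIT19 and AT4G00910 (0.70, 0.67 and 0.65) and for ABI3 SLD1, PDE331 and AT2G38410 (0.60, 0.59 and 0.59). These values describe libraries that share genotype, age and depth. Within chr4-2 CRU3 and OLEO1 ran together (r = 0.74 over 12 libraries), and within qem2 they ran in opposite directions (r = -0.72 over 11), given as a description.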

How the data were processed

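RNA-seq read counts per gene were deposited by the authors as 48 columns of whole numbers, per the file headers. TopHat2, SAMtools, HTSeq, DESeq2 and the TAIR10 build are named without versions, per the submitters' processing notes; the strand setting is not given in the sources used here. The authors' deposited tables of differential genes hold log2 fold changes and p-values, per the file headers.

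The 10 genes, the companion lists and the rules for named genes were chosen with earlier results of these data known. All 10 members are named. Of each list, called genes of smallest adjusted p were eligible, up to 4 per comparison, and 3 genes of highest Pearson r per tested member. MS2, VGD1, the neighbours and the paralogs were named after their values were seen.

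Tests used edgeR 4.0.16 in R 4.3.3: 1 quasi-likelihood fit of 47 libraries in 16 groups after TMM scaling and filterByExpr (19566 genes), with Benjamini-Hochberg adjusted p under 0.05 as a call and no fold minimum. The averaged contrast is the mean of the 4 weekly contrasts. Each SE of a log2 change is the size of the change divided by the square root of the test's F statistic, which is an approximation. CPM use TMM-scaled library sizes (factors 0.874 to 1.05). The biological coefficient of variation was 14.7%. Floors are 3 reads over a group. Intervals are exact at 95% for reads summed over libraries, without the spread between libraries. The fits were tested on simulated data. Alternatives were RLE factors, no filter, DESeq2 1.42.0, the compared libraries alone, all 48 columns, a replicate block and leaving out each library. Leaving out a library of qem2 at 5 weeks leaves 1, whose spread is taken as that of the other groups.

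Replicate numbers appear in the labels of all groups. The deviations of same-numbered libraries correlated above 0.1 in all 3 pairs in 6 of 12 weekly comparisons, namely those of chr4-2 except at 6 weeks, those of qem2 at 3 and 4 weeks, and the 5-week one of the quintuple.

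RefSeq TAIR10.1 gave names for 26719 identifiers (98.2%), promoters, neighbours and transcript lengths. The count table has no coordinates, so positions are those of TAIR10.1. Identity was computed with blastn 2.17.0.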

Additional observations from a re-analysis of the deposited data

How the results depend on the processing

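Across 1729 values of single tested members under the alternatives, 1671 kept their direction and side of the threshold, 42 lost a call, 16 gained one and 0 reversed. The averaged comparisons of chr4-2 (3 members called) and qem2 (2) kept their counts in every alternative run.

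Counts of members called moved as follows. In the fit of the compared libraries alone, chr4-2 at 4 and 5 weeks, qem2 at 5 weeks, the quintuple at 5 weeks and 6 against 3 weeks in WT went to 0, and qem2 at 6 weeks to 1. There ATS1 in qem2 missed the threshold at 5 and 6 weeks (adjusted p 0.0953 and 0.0920), whereas the other members concerned had too few reads in the smaller set to pass the filter and got no value. With all 48 columns chr4-2 at 4 weeks and qem2 at 5 weeks went to 0, and qem2 at 6 weeks and qem2 6 against 3 weeks to 1. DESeq2 called 1 in qem2 at 4 weeks and 2 in the averaged quintuple comparison, and 3 for 2 in chr4-2 at 5 weeks and in qem2 6 against 3 weeks, with OLEO1 gained in both. No filter and the replicate block each left 1 in qem2 6 against 3 weeks, where ATS1 lost its call, and the block changed no other member call. Leaving out 1 library gave 0 to 1 members in chr4-2 at 4 weeks, 1 to 2 at 6 weeks, 0 to 1 in qem2 at 3 weeks, 0 to 2 at 5 weeks, 1 to 2 at 6 weeks, 0 to 1 in the quintuple at 5 weeks, 0 to 3 in the averaged quintuple comparison and 0 to 2 for qem2 6 against 3 weeks. The cause was not tested, except that leaving out libraries leaves fewer samples.

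Counts of all genes called moved by over 1.5 times in the fit of the compared libraries alone: 60 for 214 in chr4-2 at 4 weeks, 169 for 453 at 5 weeks, 1072 for 206, 26 for 240, 157 for 276 and 115 for 560 in qem2 at 3, 4, 5 and 6 weeks, and 184 for 79, 285 for 2417 and 186 for 1342 in the quintuple at 3, 4 and 5 weeks. With all 48 columns qem2 at 5 weeks had 43 for 276. With 50 bases after the start included, 7 members held an RY core in place of 6. Sums under 3 reads over a group lay below the floor set here for bounds, and levels that low are poorly measured at this depth.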
